A study of Mus musculus with 14 samples.

Results

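Gas5 and the genes named Snhg are hosts of small nucleolar RNAs (snoRNAs). They were taken from the deposited joint expression table of 5 conditions by name, as Gas5 plus every gene whose symbol starts with Snhg, which gave 10 of 21905 genes with a symbol (Gas5, Snhg1, Snhg3, Snhg6, Snhg7, Snhg8, Snhg9, Snhg10, Snhg11 and Snhg12). The study sequenced RNA from C57BL/6 mice at least 6 weeks old, in 14 libraries made while purifying the chromatoid body, a perinuclear granule of RNA and protein in round spermatids, the haploid cells that follow meiosis. Tubule cells were dissociated with collagenase, fixed with formaldehyde and sonicated, and centrifugation gave a supernatant and a first pellet (pellet1). A further round of sonication, filtering and centrifugation gave pellet2, from which an antibody to MVH, the germ cell RNA helicase made by Ddx4, recovered the chromatoid body (MVH IP). The labels' sample types describe the IPs as coming from lysate instead. The groups used here are MVH IP (3 libraries, deposited as 1 pooled value per gene), pellet2, pellet1 and supernatant (1 library each), their starting lysate of adult testis (1), sorted round spermatids of mice heterozygous for MIWI (1) and sorted round spermatids (2, of which 1 from RNA above 500 bp). The strain and age given are the same for all of them, and the control IPs with IgG (1 library) and with an antibody to the acrosomal protease ACR (3) were not analysed here. Without those controls, RNA that the MVH antibody recovered cannot be told apart from RNA carried along. No condition has a replicate value, so differences are given as sizes without an error, and the only p-values and q-values are those in the authors' deposited table. Those q-values also compare conditions of 1 library each (MVH IP pools 3), so they too hold no spread between replicates of those single-library conditions.

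A snoRNA host gene is transcribed and spliced like a messenger RNA precursor, and its snoRNAs are trimmed out of the excised introns. Box C/D snoRNAs guide 2′-O-methylation and box H/ACA snoRNAs guide pseudouridylation of other RNAs, chiefly ribosomal RNA, in the nucleolus, while scaRNAs do so for spliceosomal RNAs in Cajal bodies. The spliced exons that remain in Gas5 and the Snhg genes encode no long protein, many of these RNAs leave the nucleus and meet ribosomes, and several, Gas5 and Snhg1 among them, are kept low by nonsense-mediated decay. Gas5 was named for its accumulation in cells whose growth is arrested. The chromatoid body is known to collect RNA-binding proteins, including factors of nonsense-mediated decay.

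The name of the group was borne out by position. In the GENCODE M21 annotation of GRCm38, each of the 10 genes contains at least 1 annotated snoRNA or scaRNA gene on its own strand, 31 in all (entries that overlap counted once; for Snhg7 the RefSeq span and strand were used), which are 60 to 275 bases long. Gas5 contains 9 of them, Snhg1 8, Snhg12 4, Snhg3, Snhg7 and Snhg11 2 each, and Snhg6, Snhg8, Snhg9 and Snhg10 1 each. Of the 31, 5 lie in introns only, 17 also lie in a retained-intron transcript of the host and 7 overlap an exon of another host transcript, while the 2 in Snhg7 were not assessed against exons. The joint table lists 12 of the 31, spread over 8 hosts, and lists none of those in Snhg3 and Snhg11. Some of the hosted RNAs are printed here as DNA, 5′ to 3′, from the GENCODE transcripts. Snord22, Scarna13 and Snora44, also described below, are not printed. Snord22 has no TGATGA, and in Snora44 the ACA found lies 34 bases before the 3′ end. Capitals in the box C/D RNAs mark box C (TGATGA) near the 5′ end and box D (CTGA) near the 3′ end, and capitals in the H/ACA RNAs mark the ACA box that lies 3 bases before the 3′ end.
Snord47 (in Gas5, chr1:161038082-161038158, plus strand): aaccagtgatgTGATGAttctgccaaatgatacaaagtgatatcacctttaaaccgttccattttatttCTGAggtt
Snord87 (in Snhg6, chr1:9942463-9942549, minus strand): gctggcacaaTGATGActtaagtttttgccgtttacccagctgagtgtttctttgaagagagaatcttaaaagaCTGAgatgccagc
Snord99 (in Snhg12, chr4:132310691-132310764, plus strand): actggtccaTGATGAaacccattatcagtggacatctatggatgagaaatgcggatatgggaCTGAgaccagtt
Snora24 (in Snhg8, chr3:123507937-123508066, minus strand): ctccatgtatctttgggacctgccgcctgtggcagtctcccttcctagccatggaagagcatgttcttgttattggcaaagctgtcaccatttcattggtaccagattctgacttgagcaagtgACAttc
Snora73a (in Snhg3, chr4:132352775-132352979, minus strand): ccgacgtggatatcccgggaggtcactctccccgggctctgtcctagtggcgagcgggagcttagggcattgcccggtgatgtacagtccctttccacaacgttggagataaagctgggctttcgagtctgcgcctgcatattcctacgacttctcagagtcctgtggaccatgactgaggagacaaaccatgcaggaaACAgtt
These RNAs are shorter than the cDNA fragments kept for sequencing, which the labels give as 350 to 500 bp with adapters. A level per length of so short an RNA is poorly defined, and reads from a snoRNA cannot be told apart from reads of the host intron around it.

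Some of the promoters also share a feature. RefSeq promoter windows (GRCm38.p6, 250 bases before to 50 after each start site) were available for 9 of the 10 genes. The letters TATA, which read the same on both strands, were searched 40 to 16 bases before the start. They were present in 5 of the 9 genes (55.6%), against 1898 of 27025 genes with a window (7.02%). The 5 windows are shown because they hold the match, over 45 bases before to 15 after the start, with TATA in capitals.
Gas5 (chr1:161035121-161035180, plus strand): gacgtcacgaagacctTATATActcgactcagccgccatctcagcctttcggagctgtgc
Snhg1 (chr19:8723442-8723501, plus strand): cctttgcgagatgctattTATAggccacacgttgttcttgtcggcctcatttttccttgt
Snhg7 (chr2:26640230-26640289, minus strand): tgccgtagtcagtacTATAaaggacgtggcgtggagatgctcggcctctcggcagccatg
Snhg8 (chr3:123508322-123508381, minus strand): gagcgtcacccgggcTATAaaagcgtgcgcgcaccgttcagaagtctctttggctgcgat
Snhg12 (chr4:132308633-132308692, plus strand): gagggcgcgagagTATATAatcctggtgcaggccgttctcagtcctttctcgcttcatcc
The match begins 32 bases before the start in Snhg12, 30 in Snhg7 and Snhg8, 29 in Gas5 and 27 in Snhg1. Gas5 has an additional start site in RefSeq without the match. No such letters were found in these windows of Snhg3, Snhg9, Snhg10 and Snhg11. Other letters were also searched. TATAAA, in the same bases, was in 2 of the 9 genes, against 2.41% of all genes with a window. A C followed by 4 bases of C or T, from 10 before to 15 after the start, was in 7, against 34.4%. A match is a description of sequence and was not tested for use.

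Levels are in FPKM (fragments per kilobase of transcript, scaled to the number of mapped fragments), as the authors computed them. Most of the summed FPKM of all genes came from snoRNA and scaRNA genes (81.1% in supernatant to 97.9% in pellet1), whose very short length inflates the unit. Comparisons use the log2 ratio of (FPKM + 1) for genes with a mean of at least 1 FPKM over the pair, and a gene is counted as higher or lower at 2-fold or more on that scale. The median gene shifted by 0.92 (log2) between MVH IP and lysate and by 0.79 between MVH IP and pellet2, so these comparisons are also given relative to that median, called centred. In the other comparisons the median shift was at most 0.08 in size. Among cell type markers, the summed level of 7 Sertoli cell genes was 50.1 FPKM in lysate and 55.9 in supernatant, then 18.7 in pellet1 and 24.3 in pellet2, with 257 in MVH IP, with Amh listed at 0 in all but supernatant. That of 6 spermatogonial genes was 14.8 FPKM in lysate and 15.4 in supernatant, then 7.31 in pellet1 and 9.76 in pellet2, and 70.9 in MVH IP. Sall4 among them was listed at 0 in lysate, supernatant and pellet2. Other marker sums did not all rise. From lysate to MVH IP they went from 40170 to 33514 FPKM for round spermatids and 282 to 301 for spermatocytes. They went from 282 to 213 for Leydig cells and 59.5 to 8.91 for red blood cells. Those of macrophages went from 14.7 to 24.7 and those of peritubular and vascular cells from 10.2 to 19.0. The 6 nuclear noncoding RNAs on the list (Malat1, Neat1, Xist, Meg3, Rmrp and Rpph1) summed to 6105 FPKM in lysate and 5685 in supernatant, then 10369 in pellet1 and 10375 in pellet2, and 1599 in MVH IP. Rmrp alone carried the higher sums in the pellets: without it they were 3326 FPKM in lysate and 3098 in supernatant, then 2255 in pellet1 and 2079 in pellet2, and 1024 in MVH IP. The part of these cell type and nuclear differences in the results below was not tested. In whole fractions, fewer cells of a type and less RNA per cell cannot be told apart.

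Gas5, whose introns carry box C/D snoRNAs (chr1:162965297-162968668, mm9), had the largest ratio of pellet1 over lysate among the members, and in pellet2 over lysate it stood beside Snhg9. Its level was 21.7 FPKM in lysate and 14.8 in supernatant, then 162 in pellet1 and 112 in pellet2, with 35.5 in MVH IP. Both pellets thus held several times as much Gas5 per kilobase as the lysate, the supernatant and the MVH IP. Of the 9 snoRNAs in Gas5, only Snord47 has its own entry. Whether reads of the others were counted as Gas5 was not tested. The log2 ratio of pellet1 over lysate was 2.84 for Gas5. Its median was 3.04 for snoRNA and scaRNA genes outside the member loci. In linear terms the Gas5 ratio was 7.44 for pellet1 over lysate, 5.15 for pellet2 over lysate and 10.9 for pellet1 over supernatant. The q-values in the authors' deposited table were 0.000106, 0.00397 and 9.76e-07 for these pairs, and 0.00011237 for pellet2 over supernatant. MVH IP held 3.15-fold less Gas5 than pellet2, with q = 0.185 in the authors' deposited table. Against pellet1 the same table gives q = 0.0387, with MVH IP lower. MVH IP against lysate differed by a linear ratio of 1.63 (q = 0.743 in the authors' deposited table), less than the shift of the median gene. A separately scaled value in MVH IP, for a Gas5 transcript that retains introns, was higher, at 263 FPKM.

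**Figure D1:**
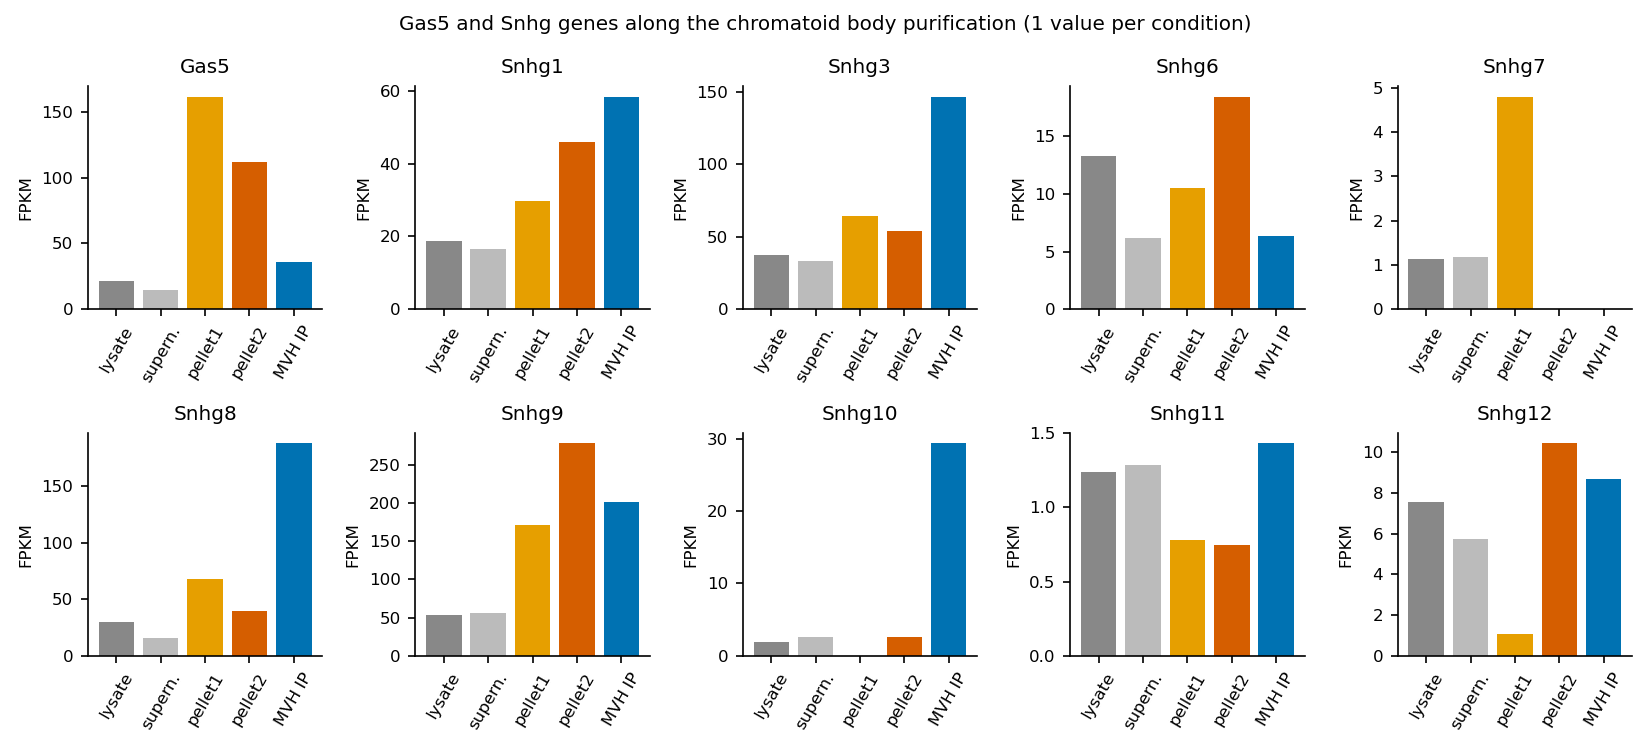
FPKM of the 10 genes (1 panel each, y axes starting at 0 and scaled per gene) in lysate, supernatant, pellet1, pellet2 and MVH IP, with 1 deposited value per bar. Gas5 peaks in pellet1 at 162 FPKM, while Snhg3 and Snhg8 peak in MVH IP at 147 and 188 FPKM.

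The other hosts of box C/D RNAs did not share this profile. Snhg1, once known as the U22 host gene for its Snord22 (chr19:8797977-8800816, mm9), was at 18.8 FPKM in lysate and 16.5 in supernatant, then 29.9 in pellet1 and 46.1 in pellet2, with 58.5 in MVH IP. It was highest in MVH IP, 3.11-fold above lysate in linear terms, a difference of 0.67 (log2) beyond the median gene. Snhg6, host of Snord87 (chr1:9932106-9934199, mm9), was at 13.3 FPKM in lysate and 6.14 in supernatant, then 10.5 in pellet1 and 18.4 in pellet2, with 6.38 in MVH IP. Unlike Snhg1 it was lower in MVH IP than in pellet2, by 2.89-fold. Snhg12, which hosts Snord99 and 3 H/ACA RNAs (chr4:131864593-131866939, mm9), was at 7.54 FPKM in lysate and 5.75 in supernatant, then 1.07 in pellet1 and 10.4 in pellet2, with 8.69 in MVH IP. Its one low value was pellet1, 7.05-fold below lysate. None of these 3 genes had a q-value under 0.05 in any of the 10 pairs of the authors' deposited table.

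Among hosts of box H/ACA RNAs, Snhg8 and Snhg3 had their highest values in MVH IP. Snhg8, host of Snora24 (chr3:123210470-123211254, mm9), was at 29.4 FPKM in lysate and 15.6 in supernatant, then 68.0 in pellet1 and 39.2 in pellet2, with 188 in MVH IP. MVH IP exceeded every other condition, by 6.38-fold over lysate and 4.79-fold over pellet2 in linear terms (centred log2 ratios 1.72 and 1.44). In the authors' deposited table its q was 0.00785 against supernatant, 0.0583 against lysate and 0.162 against pellet2. Snhg3, host of Snora73a and Snora73b, the U17 RNAs needed for cleavage of the ribosomal RNA precursor (chr4:131907848-131909601, mm9), was at 37.4 FPKM in lysate and 33.1 in supernatant, then 64.1 in pellet1 and 53.7 in pellet2, with 147 in MVH IP. Its MVH IP value was 3.92-fold that of lysate (1.02 centred, on the log2 scale), with q = 0.409899 in the authors' deposited table. Snhg9, host of Snora78 (chr17:24856476-24856910, mm9), had the highest level of the group in every condition, at 53.6 FPKM in lysate and 55.6 in supernatant, then 171 in pellet1 and 278 in pellet2, with 201 in MVH IP. It resembled Gas5 in being higher in both pellets than in lysate, by 3.19-fold in pellet1 and 5.20-fold in pellet2, with q = 0.781 and q = 0.568 in the authors' deposited table. At 435 bases its locus is the shortest of the 10.

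The remaining hosts were low. Snhg10, host of the scaRNA Scarna13 (chr12:106268827-106270489, mm9), was at 1.86 FPKM in lysate, 2.57 in supernatant, 2.58 in pellet2 and 29.4 in MVH IP, and was listed at 0 in pellet1. Its MVH IP value stood 15.8-fold above lysate and 11.4-fold above pellet2 in linear terms, the largest ratios of the group in those comparisons (2.49 and 2.29 centred, on the log2 scale). The authors' deposited table gives q = 0.336 and q = 0.418 for these pairs. By the fragment numbers described below, lysate and pellet2 may each hold only 1 fragment of Snhg10. Snhg7, host of Snora17 and Snora43 (chr2:26492696-26495764, mm9), was at 1.13 FPKM in lysate, 1.17 in supernatant and 4.80 in pellet1 and was listed at 0 in pellet2 and MVH IP. Snhg11, known as a neuronal gene and the longest of the group (chr2:158201374-158211881, mm9), lay between 0.746 FPKM in pellet2 and 1.43 in MVH IP and was not tested by the authors in any pair.

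Taken over the group, 5 of 10 genes had their highest value in MVH IP, 3 in pellet2 and 2 in pellet1, and no member peaked in lysate or supernatant. Of 15804 genes reaching 1 FPKM anywhere, 63.5% peaked in MVH IP, 8.89% in pellet2 and 6.91% in pellet1. In pellet1 against lysate, 4 of 9 members tested were higher (Gas5, Snhg9, Snhg7 and Snhg8), where 16.8% of all genes were, and 1 was lower (Snhg12), where 9.41% were. The median log2 ratio of the 9 was 0.76, against 0.07 for all genes. In pellet2 against lysate, 3 of 8 were higher (Snhg9, Gas5 and Snhg1), where 12.5% of all genes were, and 0 lower, where 7.21% were, with a median of 0.48, against 0.08 for all genes. In pellet1 against supernatant, 4 of 10 were higher (Gas5, Snhg8, Snhg9 and Snhg7), where 17.7% of all genes were, and 2 lower (Snhg10 and Snhg12), where 9.95% were. These comparisons share lysate or pellet1 values and are not separate lines of support.

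Between the pellets, 2 of 9 members were higher in pellet2 than in pellet1 (Snhg12 and Snhg10), where 5.94% of all genes were, and 1 was lower (Snhg7), where 6.67% were. Snhg10 and Snhg7 were listed at 0 in 1 of the pellets and passed the filter only through the other. Few genes differed between supernatant and lysate. Of 10 members 0 were higher in supernatant, where 0.751% of all genes were, and 1 was lower (Snhg6, barely past 2-fold), where 1.46% were. In MVH IP against lysate, 5 of 9 members were higher (Snhg10, Snhg8, Snhg3, Snhg9 and Snhg1), where 47.3% of all genes were, so the share of members was close to that of all genes. None of the 9 was lower by 2-fold, where 7.53% of all genes were. After centring, 3 were higher (Snhg10, Snhg8 and Snhg3) and 1 lower (Snhg6), where 2587 and 2852 of 13855 genes were. In MVH IP against pellet2, 3 of 9 were higher (Snhg10, Snhg8 and Snhg3), where 39.9% of all genes were, and 2 lower (Gas5 and Snhg6), where 5.78% were. After centring the split was 2 higher (Snhg10 and Snhg8) and 4 lower (Gas5, Snhg6, Snhg9 and Snhg12), where 1958 and 1888 of 13808 genes were. The authors' deposited table tested members in 81 of 100 listed pairs and gives q under 0.05 in 6, all of them of Gas5 (5) or Snhg8 (1). In that table, q under 0.05 with a higher value in pellet1 than in lysate was given to 2.16% of the genes tested, and likewise 0.965% for pellet2 over lysate, 2.96% for pellet1 over supernatant, 1.44% for pellet2 over supernatant and 9.16% for MVH IP over supernatant. Lower values in MVH IP than in pellet1 passed for 0.288% of genes.

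**Figure D2:**
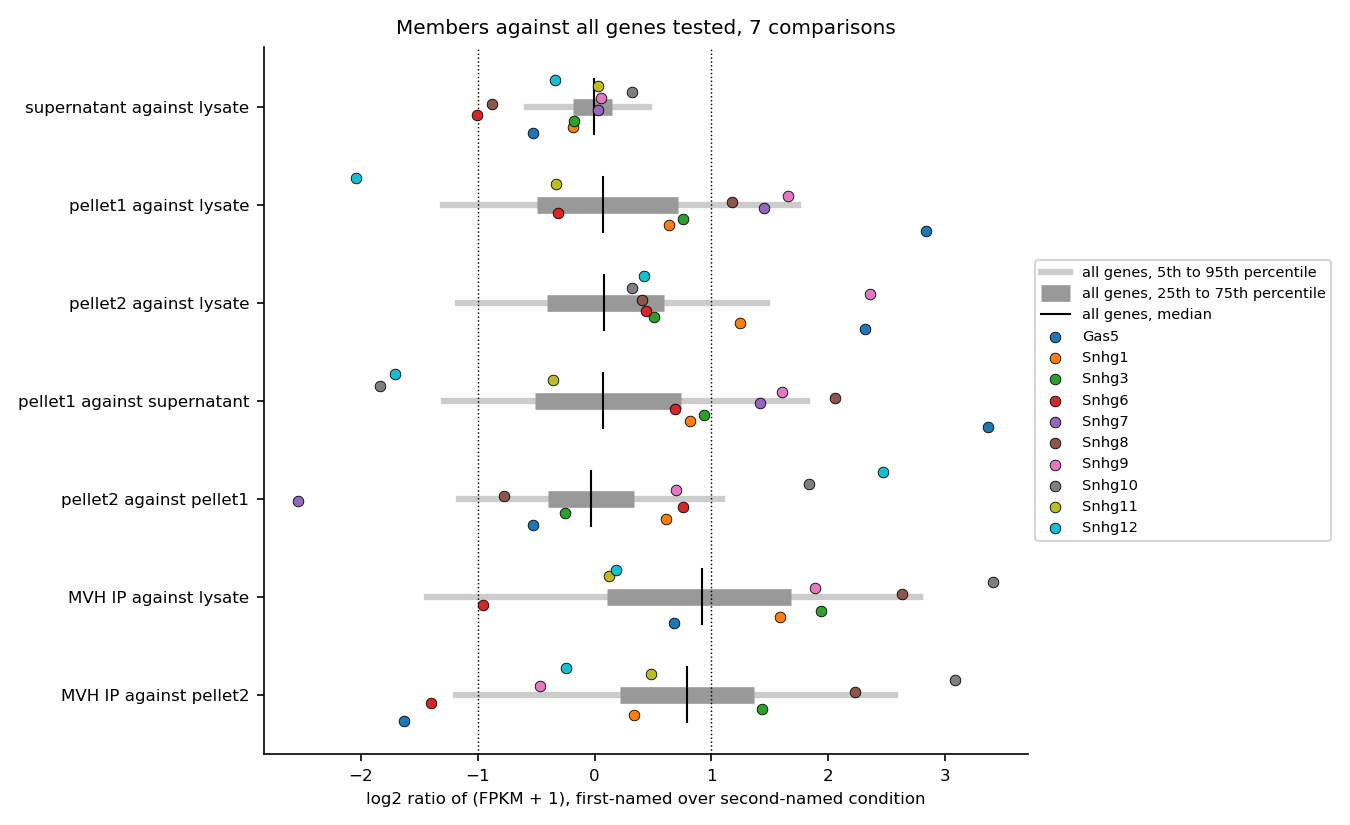
Log2 ratio of (FPKM + 1) of each member (points) in 7 comparisons, over the spread of all genes tested (grey bars, black line at the median; dotted lines mark 2-fold). Gas5 lies beyond the 95th percentile of all genes in both pellets against lysate and below the 5th percentile in MVH IP against pellet2.

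How few fragments may lie behind some of these values was inferred from the data. The most common ratio of low genes to lysate was taken as the FPKM worth of 1 fragment relative to lysate. It was 0.692 for supernatant (shared by 418 of 7743 low genes), 1.42 for pellet1 (270 of 5998) and 1.39 for pellet2 (235 of 5954). This was looked for after the values had been seen, and MVH IP, which pools 3 libraries, is not covered. A set of whole numbers of fragments (within 0.03 of a fragment, lysate number up to 60) matched the 4 levels of 6 of the 10 members, and of 41.5% of 14264 genes below 20 FPKM in lysate. The smallest such numbers, for lysate, supernatant and both pellets in turn, were 29, 37, 35 and 30 for Snhg3. They were 10, 11, 1 and 10 for Snhg12, and 9, 6, 5 and 9 for Snhg6. They were 4, 6, 9 and 15 for Snhg9, 2, 3, 6 and 0 for Snhg7, and 1, 2, 0 and 1 for Snhg10. The true numbers may be a common multiple of these. If the smallest numbers hold, the 95% exact binomial interval of the FPKM ratio of pellet2 over lysate was 1.66 to 21.5 for Snhg9. That of pellet1 over lysate was 0.891 to 14.2 for Snhg9, 0.761 to 43.1 for Snhg7 and 0.00327 to 0.998 for Snhg12. For Snhg3 it was 1.02 to 2.91. Of 30 intervals over 5 pairs of conditions, 6 excluded a ratio of 1. These intervals cover counting error only, treat fragments as independent although they were amplified by PCR without molecular identifiers, and compare libraries, not conditions. For Gas5, Snhg1, Snhg8 and Snhg11 no such numbers were found.

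**Figure D3:**
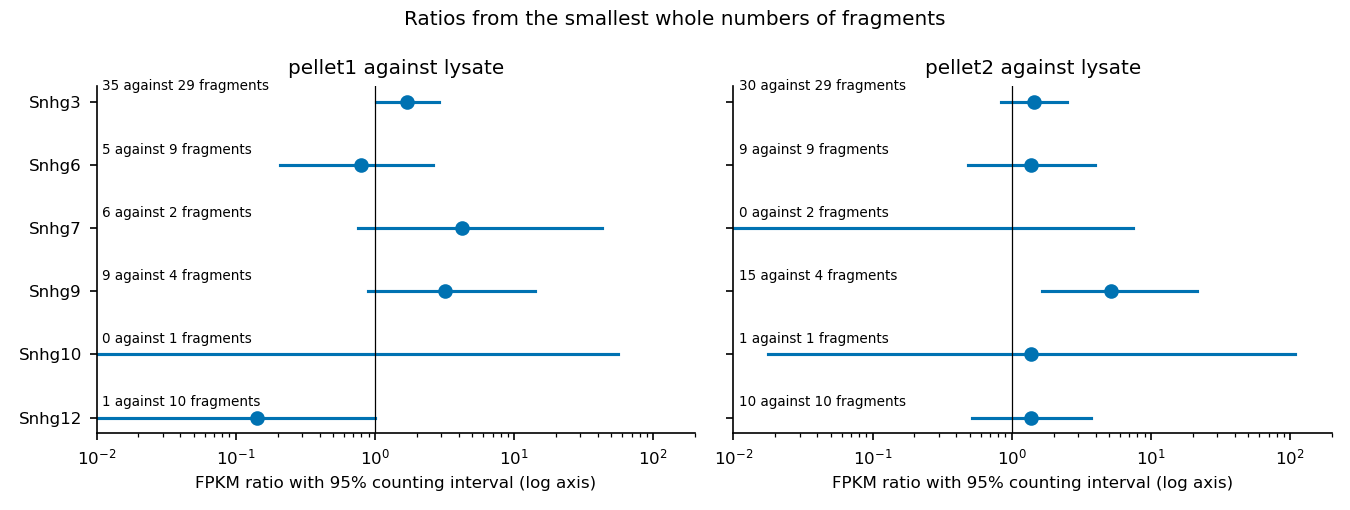
FPKM ratios of pellet1 (left) and pellet2 (right) over lysate for the 6 members with whole numbers of fragments, with 95% exact intervals on a log axis cut off at 0.01. Points are omitted where the pellet had 0 fragments, and the interval of Snhg9 in pellet2 (15 against 4 fragments) lies wholly above 1.

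The hosted RNAs were high in the pellets. All 10 snoRNA and scaRNA genes inside member loci that passed the filter were higher in pellet1 than in lysate, as were 81 of 88 such genes elsewhere in the genome. Their median log2 ratio was 2.07, against 3.04 for those elsewhere and 0.07 for all genes. In pellet2 against lysate 8 of 10 were higher and 1 lower, and elsewhere 72 of 87 were higher and 5 lower. In MVH IP against lysate 2 of 9 were higher (Snord99 and Snord87) and 5 lower (1 and 6 centred), and elsewhere 12 of 81 were higher and 39 lower (6 and 52 centred). Their median in MVH IP against lysate was -1.93, against -0.83 for those elsewhere. Among all genes, 16.8% were higher and 9.41% lower in pellet1 than in lysate. The shares were 12.5% and 7.21% in pellet2, and 47.3% and 7.53% in MVH IP (2587 and 2852 of 13855 genes centred). Snora78 in pellet1 and Snord47 in pellet2 were listed at 0 in lysate and passed the filter only through the pellet. Genes listed at 0 in 1 condition count as higher or lower here, which for some rests on very few fragments. Snora17, for example, had 10 fragments in pellet1, 1 in pellet2 and 2 each in supernatant and lysate by the smallest whole numbers.

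Several hosted RNAs differed from lysate in the opposite direction to their host. Snora24 was at 4427 FPKM in lysate and 2119 in supernatant, then 79904 in pellet1 and 22225 in pellet2, with 1049 in MVH IP, so it was 4.22-fold lower in MVH IP than in lysate while its host Snhg8 was 6.38-fold higher. The authors' deposited table marks Snora24 as having too little data for a test in every pair. Snord22 was at 24843 FPKM in lysate and 16654 in supernatant, then 221279 in pellet1 and 85543 in pellet2, with 6509 in MVH IP. It stood 3.82-fold lower in MVH IP than in lysate, where its host Snhg1 was 3.11-fold higher. For that pair the authors' deposited table gives q = 0.196 for Snord22 and q = 0.655 for Snhg1. The authors' deposited table gives Snord22 q = 1.12e-06 for pellet1 against lysate, q = 0.0196 for pellet2 against lysate and q = 0.00043088 for MVH IP against pellet2, in which it was lower. Scarna13 was at 84.2 FPKM in lysate and 90.1 in supernatant, then 342 in pellet1 and 191 in pellet2, with 69.2 in MVH IP, the condition in which its host Snhg10 was highest. Its smallest whole numbers were 22 fragments in lysate and 34 in supernatant, then 63 in pellet1 and 36 in pellet2, and the 95% exact interval of pellet1 over lysate was 2.47 to 6.94.

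Snord99 and, before centring, Snord87 were higher in MVH IP than in lysate. Snord87 was at 335497 FPKM in lysate and 156663 in supernatant, then 1223140 in pellet1 and 1045550 in pellet2, with 758065 in MVH IP, 2.26-fold above lysate in MVH IP where its host Snhg6 was 2.09-fold below. Its centred log2 ratio was 0.26, under 2-fold. The q-values of Snord87 in the authors' deposited table were 0.015985 for pellet1 and 0.0438 for pellet2 against lysate, and 0.428 for MVH IP against lysate. Snord99 was at 56103 FPKM in lysate and 21837 in supernatant, then 232831 in pellet1 and 208983 in pellet2, with 226551 in MVH IP. It was thus about equally high in both pellets and MVH IP, whereas its host Snhg12 was at 1.07 FPKM in pellet1. The q-values of Snord99 against lysate in the authors' deposited table were 0.0818 for pellet1, 0.129 for pellet2 and 0.197 for MVH IP. Its centred log2 ratio in MVH IP against lysate was 1.10, little past 2-fold. Of the other RNAs in Snhg12, Snora44 had 9015 FPKM in pellet1, 6122 in pellet2, 3313 in MVH IP and 2119 in lysate. Snora16a had 414 FPKM in pellet1 and 113 in lysate and was listed at 0 in pellet2 and MVH IP. Snora61 had 1358 FPKM in pellet1 and 2653 in pellet2, against 479 in lysate, and was listed at 0 in MVH IP. Within Snhg7, Snora17 had 572 FPKM in pellet1 and 55.9 in pellet2, against 80.6 in lysate, and was listed at 0 in MVH IP, and Snora43 was listed at 0 throughout. Snord47, the only Gas5 snoRNA in the joint table, was listed at 3414 FPKM in pellet2 and at 0 in the other 4 conditions, and Snora78 in Snhg9 at 31.8 FPKM in pellet1 and at 0 elsewhere. Gas5 was highest in pellet1, where Snord47 was listed at 0, and the joint table gives no value for the other snoRNAs in Gas5. The table gives each hosted RNA the coordinates of its whole host, so a read in a shared interval could have been credited to either.

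**Figure D4:**
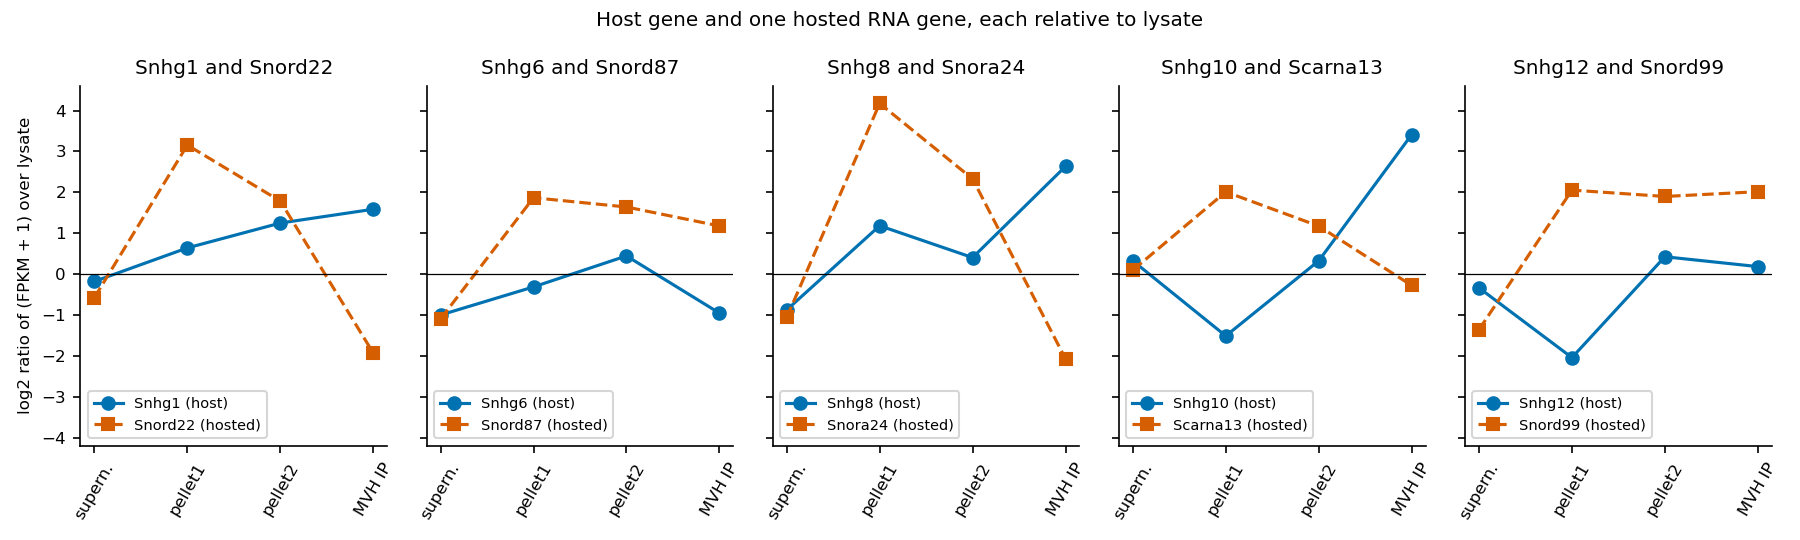
Log2 ratio of (FPKM + 1) over lysate in supernatant, pellet1, pellet2 and MVH IP for 5 host genes (circles, solid lines) and 1 hosted RNA of each (squares, dashed lines). Snord22 and Snora24 are below lysate in MVH IP while Snhg1 and Snhg8 are above it; the Snhg10 point in pellet1 stands for a gene listed at 0.

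Genes that act with the hosts were set beside them. For scale, 16.8% of all genes were higher in pellet1 than in lysate and 47.3% in MVH IP than in lysate. After centring, 2587 of 13855 genes were higher and 2852 lower in MVH IP. Of the 4 core proteins of box C/D particles, 2 were higher in pellet1 than in lysate and 3 in MVH IP than in lysate (0 centred), with Nhp2l1, which binds the kink-turn of box C/D RNAs, at 50.4 FPKM in pellet1, 85.0 in MVH IP and 21.8 in lysate. The lowest ratios were those of Nop56, at 2.04 FPKM in pellet1 and 4.34 in lysate, and of Fbl, the methyltransferase fibrillarin, at 26.04 FPKM in MVH IP, against 14.6 in lysate. Of 3 tested H/ACA core proteins 1 was higher in each, Gar1, at 10.1 FPKM in pellet1, 22.0 in MVH IP and 3.99 in lysate, while Nop10 was at 38.5 FPKM in pellet1 and 55.5 in lysate and Nhp2 at 8.59 FPKM in MVH IP, against 8.01 in lysate. Among 8 snoRNP assembly factors, 1 was higher in pellet1 than in lysate and 5 in MVH IP (3 higher and 2 lower centred). Znhit3 was at 172 FPKM in pellet1 and 55.4 in lysate, and Shq1, a chaperone of the pseudouridine synthase dyskerin, at 51.0 FPKM in MVH IP, against 4.43 in lysate. At the low end were Ruvbl2, at 47.2 FPKM in pellet1 and 76.6 in lysate, and Znhit6, at 4.34 FPKM in MVH IP, against 8.17 in lysate. Of 8 nonsense-mediated decay factors in the table, 1 was higher in pellet1 and 4 in MVH IP than in lysate (1 higher and 1 lower centred). The extremes in MVH IP were Upf2, a bridging factor of decay, at 159 FPKM, against 34.5 in lysate, and Smg5 at 23.5 FPKM, against 33.7 in lysate. They were also the extremes in pellet1, at 88.3 FPKM for Upf2 and 20.8 for Smg5.

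Protein-coding snoRNA hosts, mostly ribosomal protein and translation factor genes, went the other way from Gas5 in pellet1. Of 23 tested, 0 were higher and 10 lower in pellet1 than in lysate, with a median log2 ratio of -0.82. Against lysate, 16.8% of all genes were higher and 9.41% lower in pellet1. The shares were 12.5% and 7.21% in pellet2, and 47.3% and 7.53% in MVH IP. Rpl12, a protein of the large ribosomal subunit, was at 9.46 FPKM in pellet1 and 35.4 in lysate, and Rps3, of the small subunit, had the highest ratio at 13.2 FPKM in pellet1 and 9.09 in lysate. In pellet2 against lysate 0 of 24 were higher and 4 lower, the lowest being Gnb2l1 (the ribosomal scaffold RACK1) at 2.01 FPKM in pellet2 and 20.9 in lysate and the highest Rps3 at 11.1 FPKM in pellet2 and 9.09 in lysate. In MVH IP against lysate 5 of 25 were higher and 4 lower (2 and 11 centred), from Tbrg4 at 2.27 FPKM, against 9.29 in lysate, to Rps2 at 5.36 FPKM, against 0.0789 in lysate, which passed the filter only through MVH IP. Many of these genes have near-identical processed copies, so the authors' counting could have split their reads. Of the nuclear noncoding RNAs, Rmrp, the RNA of RNase MRP, was the highest in pellet1 relative to lysate, at 8114 FPKM, against 2779 in lysate, and Malat1, of nuclear speckles, the lowest at 394 FPKM, against 626 in lysate. In pellet2 the extremes were Neat1, of paraspeckles, at 242 FPKM, against 76.7 in lysate, and Rpph1, of RNase P, at 1151 FPKM, against 2619 in lysate. All 5 tested were lower in MVH IP than in lysate, from Meg3 at 1.14 FPKM, against 4.07 in lysate, to Neat1 at 11.5 FPKM, against 76.7 in lysate. Gas5 in MVH IP, at 35.5 FPKM against 21.7 in lysate, was not among the lower genes (centred log2 ratio -0.23). Against pellet2, however, Gas5 was lower in MVH IP, with a log2 ratio of -1.63. So were 4 of the 5 nuclear noncoding RNAs tested, where 5.78% of all genes were.

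The profile of Gas5 over the 5 conditions had few close companions. Likeness was measured as the distance between log2(FPKM + 1) profiles, each centred on its own mean, among 6505 genes other than small RNA genes with a mean of at least 10 FPKM. The 5 nearest were Gm12238 (distance 0.90), Tmem95 (1.16), Cypt4 (1.29), Tppp3 (1.34) and 2310047B19Rik (1.44). Gm12238 was at 599 FPKM in lysate and 311 in supernatant, then 2338 in pellet1 and 1519 in pellet2, with 924 in MVH IP. Only 26 of the 6505 genes, or 0.400%, had a nearest neighbour as far away as that of Gas5, where the median such distance was 0.089. For Snhg6 the share was 0.846%, and for Snhg8, Snhg9 and Snhg1 it was 6.73%, 8.30% and 9.72%. Snhg3 had many companions, with 70.7% of genes at least as isolated. Within the group the closest profiles were those of Snhg1 and Snhg3, at a distance of 0.82, and Gas5 was closest to Snhg9, at 1.76. These are descriptions over 5 values per gene.

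The other deposited tables, each scaled separately and listing genes from about 5 FPKM, held few of these genes. The separate lysate table listed 5 of the 10: Snhg9 at 19.5 FPKM, Gas5 at 12.4, Snhg3 at 11.7, Snhg8 at 11.1 and Snhg1 at 7.28. The same genes were 1.76-fold (Gas5) to 3.21-fold (Snhg3) higher in the joint table, where the median ratio over 5254 genes was 2.44. Relative to other genes, then, Gas5 was higher in the separate lysate table than in the joint one. The gene tables of MVH IP (8056 genes) and of round spermatids (4956 genes) listed 0 of the 10, although the joint MVH IP values of 6 of them exceeded 10 FPKM. Those tables list 31 (MVH IP) and 23 (round spermatids) genes that RefSeq calls long noncoding, against 81 of 7900 in the separate lysate table, so a gene that is not listed there cannot be read as low. A further MVH IP table did list Snhg9 at 83.9 FPKM, Snhg8 at 80.5, Snhg3 at 80.4 and Snhg1 at 21.5, which were 1.82-fold to 2.72-fold lower than in the joint table, where the median over 6134 genes was 2.34. The round spermatid table of MIWI heterozygotes listed only Snhg10, at 5.60 FPKM. No member was therefore listed in both tables of any comparison that involves round spermatids, and no ratio could be given.

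The tables of other RNAs, matched here by Ensembl identifier because their symbols sometimes name a neighbouring gene, added 1 further measure of Gas5. A transcript of Gas5 that retains introns was at 263 FPKM in MVH IP, listed under the symbol of the adjacent gene Zbtb37. It was not listed for round spermatids. The joint table gave Gas5 35.5 FPKM in MVH IP, although Snord87 was higher in the joint table (758065 against 271954 FPKM). The 2 measures of Gas5 in MVH IP thus disagree, and the reason was not tested. A line under the symbol Snhg1, whose identifier was not matched, was at 9.16 FPKM in MVH IP. Of the hosted RNAs, Snord87 was at 271954 FPKM in MVH IP, against 37665 in round spermatids, and Snora24 at 1395 and 1030.2 FPKM. The 2 U17 RNAs inside Snhg3, which the joint table does not list, appeared here: Snora73a was at 213 FPKM in MVH IP, against 45.9 in round spermatids, and Snora73b at 145 and 26.9 FPKM. Scarna13 was at 11.4 FPKM in MVH IP, against 22.3 in round spermatids. Since the 2 tables were scaled separately, these values are set side by side without a ratio.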

How the data were processed

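RNA was sequenced from libraries primed with not-so-random hexamers. TopHat and Cuffdiff were used with build mm9, per the submitters' processing notes. The sources used here give no versions, read numbers, scaling between conditions or use of strand. FPKM values were used as deposited, in the unit named per the file headers (for the tables of other RNAs, which have no header, inferred from the values). The joint table gives 1 value per condition, MVH IP pooling 3 libraries; where its rows differed in a gene's value, which happened for no member, the highest was used. The p-values and q-values are the authors', deposited in that table, and called at q under 0.05. An exact 0, possibly a failed estimate, is given as listed at 0, with no fold. Depth is unknown apart from the relative fragment sizes in the report.

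Log2 ratios of (FPKM + 1), filters and whole-number searches were computed with Python 3.11.15, pandas 2.3.3 and scipy 1.17.1 and tested on simulated data. The (FPKM + 1) scale understates changes of low genes. Members and lists were chosen with earlier results of these data known. Named were all members, the RNA genes inside their loci, the list genes with the highest and lowest ratio in the comparisons described (cell type markers as sums) and the 5 genes nearest to Gas5. Repeated lines (42) of the MVH IP table of other RNAs were counted once. A column of small RNA values, 1 in number, was not used. Loci in the joint table count from 0 and are printed counted from 1. Alternative pseudocounts, filters, centring and thresholds were tried.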

Additional observations from a re-analysis of the deposited data

How the results depend on the processing

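No paired analysis was possible because each condition has 1 deposited value, and for the same reason no replicate could be left out. Of 105 counts recomputed under the alternatives, 81 stayed within 1.5 times the value reported and 24 moved. Among 448 ratios of single members 421 kept their call (higher, lower or neither), 11 lost a call, 16 gained one and 0 called ratios changed sign. Centring changed the sign of 5 ratios that were not called. With a pseudocount of 5 the members counted lower became 0 in supernatant against lysate and 0 in pellet1 against supernatant, and pellet2 against pellet1 had 1 higher and 0 lower. With a pseudocount of 0.1, MVH IP against lysate had 1 lower (Snhg6). Without a filter 2 were lower in pellet1 against lysate and 1 each in pellet2 against lysate and MVH IP against lysate. Each call added this way was of a gene listed at 0 (Snhg10 in pellet1, Snhg7 in pellet2 and MVH IP). At a mean of 5 FPKM, 0 were lower in pellet1 against lysate and in pellet1 against supernatant, and pellet2 against pellet1 had 1 higher and 0 lower. Without genes listed at 0, pellet1 against supernatant had 1 lower and pellet2 against pellet1 had 1 higher and 0 lower. At 1.5-fold, 2 were lower in supernatant against lysate, 7 higher in pellet1 against supernatant, 5 higher and 2 lower in pellet2 against pellet1 and 1 lower in MVH IP against lysate. Centring gave 0 lower in supernatant against lysate, 3 higher and 1 lower in MVH IP against lysate, and 4 lower in MVH IP against pellet2. The lowest instead of the highest deposited MVH IP value changed nothing for these genes. The 12 hosted RNAs carry the coordinates of their host, so counting only loci wholly inside a host could not change their number. That count is included in the 81 above. The comparisons across separate tables, MVH IP against lysate included, had 0 members in both tables, also with lysate or MVH IP from the joint table, so their pseudocount, centring and threshold alternatives gave no value.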

Other observations

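Several more noncoding snoRNA hosts are in the joint table under names older than their present symbols, matched through RefSeq synonyms, and fall outside the group described above. Snhg20 (listed as 2810008D09Rik) was at 30.2 FPKM in MVH IP, against 3.82 in lysate and was listed at 0 in both pellets. Snhg16 (1810032O08Rik) was at 4.45 FPKM in lysate, then 17.9 in pellet1 and 9.58 in pellet2, with 20.4 in MVH IP. Snhg17 (9430008C03Rik) was at 2.78 FPKM in lysate, then 5.26 in pellet1 and 7.28 in pellet2, with 11.96 in MVH IP. Zfas1 (1500012F01Rik) had 3.22 FPKM in pellet1 and 2.56 in lysate and was listed at 0 in MVH IP and pellet2. Dancr (2700023E23Rik) did not exceed 1.57 FPKM in any condition. Snhg14 has 2 lines: C230091D08Rik was at 1.98 FPKM in MVH IP, against 4.87 in lysate, and D7Ertd715e did not exceed 0.529 FPKM. A further list held 10 snoRNA hosts, made of these 7 lines with Taf1d, Rian and Meg3. In MVH IP against lysate 8 passed the filter, of which 3 were higher and 2 lower (2 and 4 centred). In pellet1 against lysate 7 passed, with 1 higher and 1 lower. Among all genes, 47.3% were higher and 7.53% lower in MVH IP, and 16.8% and 9.41% in pellet1.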
